A study of Homo sapiens with 4 samples.

Results

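The chaperonin TRiC, also called CCT, is a protein-folding machine assembled from the products of 8 genes, TCP1, CCT2, CCT3, CCT4, CCT5, CCT6A, CCT7 and CCT8. These 8 genes were taken by symbol from a table of 24934 gene rows, where each stands on 1 row. Their levels were followed in HEK-293 cells, an established line derived from human embryonic kidney, 48 h after transfection with 10 nM of siRNA. The si4 and si5 libraries came from cells given 2 different siRNAs against ZSCAN5A, the si1 library from cells given an siRNA against ZSCAN5B, and the control library from cells given a scrambled siRNA. There is 1 library for each siRNA, 4 in all, so si4 and si5 are the closest the design comes to replicates and every comparison with the control rests on the same single library. ZSCAN5A and ZSCAN5B are paralogous zinc finger proteins of the SCAN domain family, and the study asked which genes respond when either is depleted.

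TRiC has the form of a barrel made of a pair of stacked rings, each holding every subunit once in a fixed order. Newly made proteins enter the cavity and fold there as the subunits bind and hydrolyze ATP. Actin and tubulin are its best known substrates, and proteins with WD40 repeats, such as the mitotic regulator CDC20, are another class. Prefoldin hands over unfolded actin and tubulin to the chaperonin. TCP1, CCT2, CCT4 and CCT5 form the side of the ring that binds ATP tightly, and CCT3, CCT6A, CCT7 and CCT8 form the side that binds it weakly. The genes lie apart from one another. On hg19, which the table uses, they are at chr6:160199529-160210735 (TCP1, minus strand), chr12:69979207-69995357 (CCT2, plus strand), chr1:156278751-156308206 (CCT3, minus strand), chr2:62095261-62115806 (CCT4, minus strand), chr5:10250281-10266501 (CCT5, plus strand), chr7:56119377-56131682 (CCT6A, plus strand), chr2:73461363-73480150 (CCT7, plus strand) and chr21:30428647-30446010 (CCT8, minus strand). Their main annotated transcripts have 11 to 16 exons, and the FPKM of a gene is taken over its transcripts as a whole, UTRs included.

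Values are FPKM, the fragments of a gene divided by transcript length and by library size, so levels of different genes can be set side by side. The depth, read from the steps between low values, was approximately 54100000 to 59100000 fragments for si4, si1 and the control and 83600000 for si5. The paper states a range of reads per sample that lies above the former values and below that of si5. By this estimate each TRiC gene was measured from about 17900 to 68300 fragments in a library, which makes the counting intervals of their ratios narrow. The fragment counts and intervals rest on the estimate of depth. FPKM values summed to 488036 in the control and were 1.12, 1.11 and 1.10 times that in si4, si5 and si1. ZSCAN5A stood at 30.2% and 29.5% of the control with si4 and si5. ZSCAN5B stood at 105% with si1, from 16 fragments against 15, with a counting interval of 48.6% to 228%. These few counts do not show the knockdown, and this sample is therefore called the library labelled ZSCAN5B knockdown. The paper reports lower ZSCAN5B with si1 by qRT-PCR and Western blot. Its qRT-PCR level with si1 lies below the counting interval given here, which does not cover the spread between cultures. ZSCAN5B stood at 36.6% with si4, from 6 fragments (11.6% to 99.9%), and at 73.4% with si5, from 17 fragments (34.5% to 158%). The paper reports higher ZSCAN5B with si4 by qRT-PCR. Of the markers checked for HEK-293 cells, NEFL, NEFM, VIM and KRT18 lay between 8.46 and 358.8 FPKM. PAX2 lay between 0.584 and 1.16 FPKM, PAX8 at 0.0398 FPKM or below, and PTPRC and ALB, markers of blood and liver cells, at 0.0335 FPKM or below.

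The sequences around the start sites of the TRiC genes were examined because the members were compared as a group. RefSeq start sites on GRCh38.p14 gave 9 windows for 7 of the 8 genes, each with 250 bases before and 50 bases after the start. CCT6A had no entry. The letters of 9 short motifs of common promoter factors were searched on both strands. The 250 bases before the start are printed for TCP1, which held 3 of the motifs, for CCT8, which had the highest ratio to the control in any library, and for CCT4, which stood apart from the other subunits. Capitals mark the letters GGGCGG (GC box), CCAAT or GAANNTTC (part of a heat shock element) on either strand.
TCP1 (chr6:159789603-159789852, minus strand): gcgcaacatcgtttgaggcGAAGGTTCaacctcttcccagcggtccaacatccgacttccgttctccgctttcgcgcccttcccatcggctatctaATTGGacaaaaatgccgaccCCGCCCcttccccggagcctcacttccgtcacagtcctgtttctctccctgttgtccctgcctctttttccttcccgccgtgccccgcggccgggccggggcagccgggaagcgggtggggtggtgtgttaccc
CCT8 (chr21:29073649-29073898, minus strand): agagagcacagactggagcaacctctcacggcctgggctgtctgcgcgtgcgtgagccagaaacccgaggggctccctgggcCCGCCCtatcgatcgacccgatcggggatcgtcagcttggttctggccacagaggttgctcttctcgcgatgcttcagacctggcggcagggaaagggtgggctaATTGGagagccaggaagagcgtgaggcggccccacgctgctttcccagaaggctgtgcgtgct
CCT4 (chr2:61888657-61888906, minus strand): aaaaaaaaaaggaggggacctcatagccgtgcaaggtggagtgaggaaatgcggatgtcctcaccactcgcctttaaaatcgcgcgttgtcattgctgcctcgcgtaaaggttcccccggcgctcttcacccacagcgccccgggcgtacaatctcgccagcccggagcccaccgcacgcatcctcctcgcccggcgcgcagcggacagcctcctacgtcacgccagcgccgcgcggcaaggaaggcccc

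The printed motifs do not overlap one another. A GC box was found for TCP1, CCT2, CCT3, CCT7 and CCT8, in 6 of the members' 9 windows, against 45.0% of 35116 windows of all genes outside chr8. The box CCAAT was found for TCP1, CCT2, CCT3 and CCT8, in 4 of the 9, against 34.6% of all these windows. The letters GAANNTTC, part of a heat shock element, were found for TCP1 and for the second start of CCT2, in 2 of the 9, against 6.77% of all windows. An ETS core (CCGGAAG) was found for CCT2 alone, in 1 of the 9, against 10.3% of all windows. The letters of an E-box (CACGTG, 7.26% of all windows), a YY1 site (GCCATNTT, 6.58%), a ZNF143 core (ACTACAA, 2.77%), a cAMP response element (TGACGTCA, 1.85%) and a TATA box (TATAAA, 11.5%) were in none of the members' windows. The windows of CCT4 held none of the 9 motifs. They are nearly the same sequence, shifted by 15 bases, and are counted separately among the 9 windows. The single window of CCT5 is not read here as sequence in front of the gene, because the annotated coding start (GENCODE) lies in it, 196 bases before the RefSeq start used. The window of the second start of CCT2 likewise lies beyond the first start. These matches describe the letters only, and the windows were not tested against others. The GC content of the members' windows was 57.7% to 70.0%, beside a median of 58.7% over all windows.

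All 8 TRiC genes were strongly expressed, between 127.8 and 365.3 FPKM in the control. The tight-binding side of the ring spanned a narrow range there. TCP1, which encodes the alpha subunit, had 160.6 FPKM in the control and 184.7, 175.3 and 187.0 with si4, si5 and si1. CCT2, the beta subunit, had 184.9 FPKM in the control and 234.3, 219.6 and 230.1 with si4, si5 and si1. For both genes the control was the lowest library. CCT5, the epsilon subunit, had 181.5 FPKM in the control and 213.9, 211.5 and 229.3 in the same order. CCT4, the delta subunit, had 169.1 FPKM in the control and 166.2, 173.3 and 188.5. CCT4 was thus the 1 member whose control level lay among those of the siRNA libraries, above si4 and below si5 and si1.

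The weak-binding side of the ring held both the highest and the lowest levels. CCT7, the eta subunit, was highest in every library, with 365.3 FPKM in the control and 457.5, 442.3 and 468.2 with si4, si5 and si1. CCT3, the gamma subunit, had 258.3 FPKM in the control and 323.7, 297.0 and 328.9. CCT8, the theta subunit, had 243.1 FPKM in the control and 289.6, 301.9 and 320.1. CCT6A, the zeta subunit, was lowest in every library, with 127.8 FPKM in the control and 156.8, 142.8 and 159.7. The control was the lowest of the 4 libraries for each of these genes. In all, the control was lowest for 7 of the 8 members, against 30.1% of 12983 genes and 74.0% of 704 genes with a mean of at least 100 FPKM. The si1 library was the highest of the 4 for 7 members, with CCT2 the exception. The share of all genes for which si1 was highest was not counted, so this is not read as a trait of the members.

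**Figure D1:**
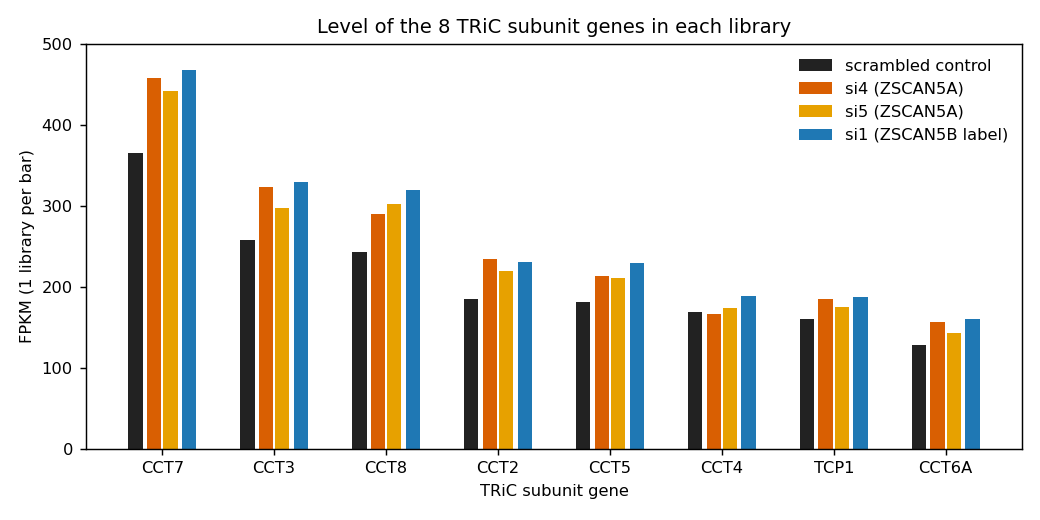
FPKM (vertical axis) of the 8 TRiC subunit genes, ordered by their level in the scrambled control, with 1 bar for each of the 4 libraries and no error bars because each bar is 1 library. The control bar is the lowest of the 4 for every gene but CCT4, whose si4 bar of 166.2 FPKM lies just under the control bar of 169.1.

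The products are used in equal numbers in the complex, while the transcript levels were unequal. The highest level was 2.86 times the lowest in the control, 2.92 times with si4, 3.10 times with si5 and 2.93 times with si1. Without CCT7 and CCT6A, the extremes, it was 1.61 times in the control. CCT7 made up 21.6% of the summed FPKM of the 8 genes in the control and 22.2% to 22.6% in the siRNA libraries. The order in the control was CCT7, CCT3, CCT8, CCT2, CCT5, CCT4, TCP1 and CCT6A. The widest gap between si4 and si5 for any member was 1.10-fold. By that measure CCT3 and CCT8 (1.06-fold apart in the control), CCT2 and CCT5 (1.02-fold), CCT5 and CCT4 (1.07-fold) and CCT4 and TCP1 (1.05-fold) were not separated in the control, and the first and last of these pairs changed places in other libraries. CCT5 and CCT4 were farther apart in the siRNA libraries, at 1.29-fold, 1.22-fold and 1.22-fold with si4, si5 and si1. CCT3 was 0.984 times CCT8 with si5, and CCT4 was 0.900 and 0.989 times TCP1 with si4 and si5. CCT7 over CCT3, CCT8 over CCT2 and TCP1 over CCT6A kept ratios of at least 1.17 in every library.

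The first comparison set the mean of si4 and si5 against the scrambled control. All 8 TRiC genes were higher, by a median log2 ratio of 0.25 or 1.19-fold, beside 46.7% of 12993 genes that were higher and a median over these genes of -0.02. The log2 ratio was highest for CCT7 and CCT2, both at 0.30, followed by 0.28 for CCT8 and 0.26 for CCT3. It was 0.23 for both CCT5 and CCT6A, 0.16 for TCP1 and 0.01 for CCT4. The pair with the lowest ratios, TCP1 and CCT4, belongs to the tight-binding side of the ring, as does CCT2, which was among the highest. The 4 members CCT2, CCT3, CCT7 and CCT8 were above 1.2-fold, as were 9.14% of all genes. Among genes with a mean of at least 100 FPKM these 4 stood between percentile 67.4 for CCT3 and 76.8 for CCT7. A larger share of those strong genes was thus above 1.2-fold. None of the 8 passed the 1.5-fold limit used to call a gene changed, which 3.79% of all genes did in either direction. The summed FPKM of the 8 genes was 1.2 times the control with si4 and 1.16 times with si5. In RNA of whole cultures, a changed mix of cells and a changed level within cells cannot be told apart.

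Each siRNA against ZSCAN5A alone gave a similar picture. With si4, 7 of the 8 genes were above the control, with a median log2 ratio of 0.27. With si5 all 8 were above it, with a median of 0.21. For the mean of these libraries 46.7% of all genes and 86.3% of genes with a mean of at least 100 FPKM were above the control. These shares were not counted for each library alone. The ratio of CCT7 to the control was 1.25 in the si4 library (exact 95% interval 1.24 to 1.27) and 1.21 with si5, where the interval was 1.195 to 1.23. For CCT4 the ratio was 0.983 with si4 (0.965 to 1.001) and 1.03 with si5 (1.01 to 1.04). These intervals cover counting error between 2 libraries alone and not the spread between cultures.

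**Figure D2:**
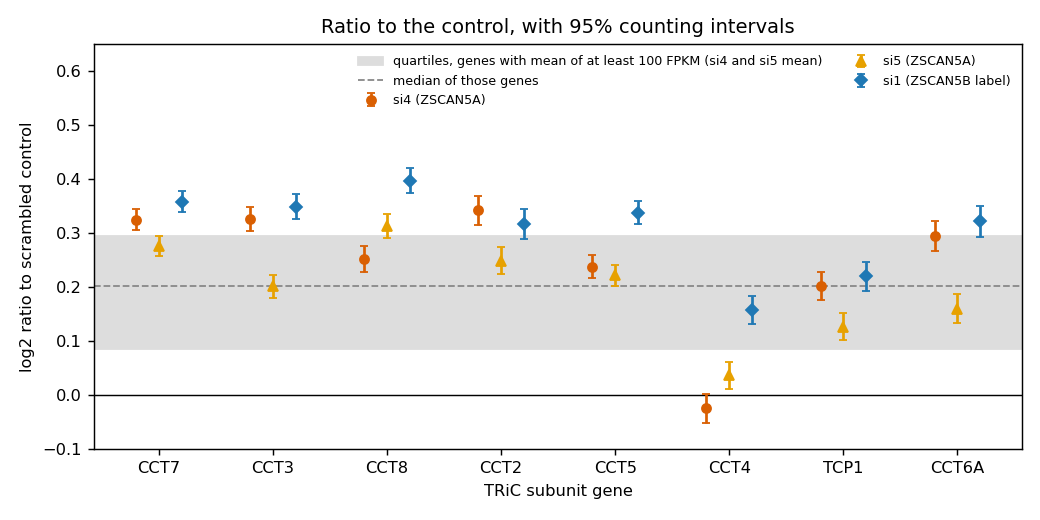
Log2 ratio of each siRNA library to the scrambled control (vertical axis) for the 8 TRiC subunit genes, with 95% counting intervals. The gray band and dashed line show the quartiles and median of genes with a mean of at least 100 FPKM in the si4 and si5 mean, 0.09, 0.29 and 0.20, and CCT4 is the only member with points below the band.

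The ratios of all genes moved with their level, and the TRiC genes are among the stronger ones. With si4 and si5, the median log2 ratio was -0.10 for genes with a mean of 1 to 10 FPKM, 0.01 for 10 to 30, 0.09 for 30 to 100, 0.18 for 100 to 300 and 0.26 above 300. Of the 706 genes with a mean of at least 100 FPKM, 86.3% were higher than in the control. Among these genes the members stood between percentile 14.3 for CCT4 and percentile 76.8 for CCT7, whereas among all genes they stood between 54.3 and 93.5. With the median of the strong genes removed, the median of the members was 0.05 and 6 of the 8 were above 0, CCT4 standing at -0.20 and TCP1 at -0.04. When the libraries were scaled to equal FPKM sums, the median of the members was 0.09, with 7 of 8 genes higher and CCT4 at -0.15. On that scale 21.4% of all genes were higher, with a median of -0.17. Of the genes with a mean of at least 100 FPKM 61.8% were, with a median of 0.05. Both steps were added after the trend and the sums were seen. Ratios also moved with transcript length, from 0.16 in the shortest of 10 length groups to -0.12 in the longest, and the members have transcripts of 1847 to 3293 bases. With the median of genes of like length and GC content removed, the median of the members was 0.21. The part of level, length and summed FPKM in the result was not tested.

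**Figure D3:**
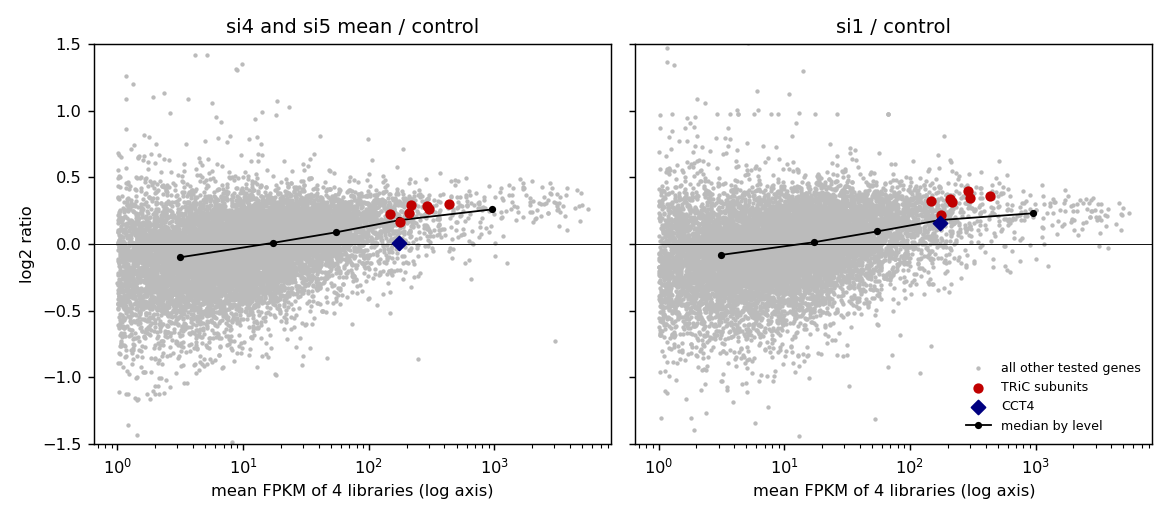
Log2 ratio to the control (vertical axis) against mean FPKM of the 4 libraries (log axis) for the mean of si4 and si5 and for si1, with all other tested genes in gray, the TRiC subunits in red, CCT4 as a blue diamond and the median of genes by level as a black line (each point inside its range). The line climbs from -0.10 to 0.26 on the left and from -0.08 to 0.23 on the right, and the red points lie on or above it apart from TCP1 on the left, just under it, while CCT4 lies under it in both panels.

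In the library labelled ZSCAN5B knockdown, all 8 TRiC genes again exceeded the control. Their median log2 ratio was 0.33, or 1.26-fold, beside 48.5% of 12921 genes that were higher and a median over these genes of -0.01. CCT8 had the highest log2 ratio, 0.40, followed by CCT7 at 0.36, CCT3 at 0.35 and CCT5 at 0.34. Those of CCT6A and CCT2 were both 0.32, and TCP1 at 0.22 and CCT4 at 0.16 were again the lowest. The ratio of CCT8 to the control was 1.32, with a counting interval of 1.30 to 1.34, and that of CCT4 was 1.11 (1.10 to 1.14). In all, 6 members were above 1.2-fold, as were 11.1% of all genes, and none passed the 1.5-fold limit, which 4.01% of all genes did. The summed FPKM was 1.25 times the control. Of the genes with a mean of at least 100 FPKM, 85.0% were higher, with a median of 0.20. Among these genes the members stood between percentile 39.1 for CCT4 and percentile 92.4 for CCT8. With the median of these genes removed, the members' median was 0.13 and 7 of the 8 were above 0, with CCT4 at -0.04. With equal FPKM sums the members' median was 0.19, with all 8 higher. On that scale 26.1% of all genes were higher, with a median of -0.15. Of the genes with a mean of at least 100 FPKM 64.7% were, with a median of 0.06. Because this comparison and the first use the same control library, their values are given side by side and are not independent.

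The comparison of si4 with si5 does not involve the control. The 8 genes had a median log2 ratio of 0.06, beside 0.02 over 12800 genes, and 6 of them were higher with si4, against 54.6% of all genes. The log2 ratio was 0.13 for CCT6A, 0.12 for CCT3, 0.09 for CCT2, 0.08 for TCP1, 0.05 for CCT7 and 0.02 for CCT5. CCT4 and CCT8 were lower with si4, each at -0.06. None of the 8 was above 1.2-fold, while 8.62% of all genes were, and none passed 1.5-fold, while 2.53% did. The distance between the 2 siRNAs to ZSCAN5A was thus smaller than the distance of either from the control for 7 of the 8 members, CCT4 being the exception. The same held for 45.9% of 12983 genes and for 65.8% of 704 genes with a mean of at least 100 FPKM.

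In the limma fit on log2(FPKM + 1), where si4 and si5 alone supply the spread, none of the 8 members was called against the control at an adjusted p (Benjamini-Hochberg) under 0.05 in either comparison. The adjusted p-values from limma ran from 0.385 to 0.983 with the ZSCAN5A siRNAs and from 0.468 to 0.579 with si1. Of 13078 genes fitted, 10 or 0.0765% were called in each comparison. The median log2 ratio of the members in this fit was 0.25 with the ZSCAN5A siRNAs and 0.33 with si1. The fit has 1 control library and leaves the trend of ratios with level in place. The higher levels of the TRiC genes are therefore described here without being called.

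CCT4 departed from the rest of the complex. Its FPKM was 0.915 times the median of the other 7 subunits in the control, 0.709 times with si4, 0.789 times with si5 and 0.819 times with si1. The highest of these values was 1.29 times the lowest. For the other 7 subunits this range was 1.06-fold to 1.10-fold. CCT4 held 10.0% of the summed FPKM of the 8 genes in the control and 8.20%, 8.83% and 8.93% with si4, si5 and si1. TCP1 moved the same way by less, from 0.869 times the median of its 7 partners in the control to 0.788, 0.798 and 0.813 times. A ratio between genes within a library does not change with the scaling of that library. The departure was noticed in these data, and with 1 control library it has no replicate check.

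**Figure D4:**
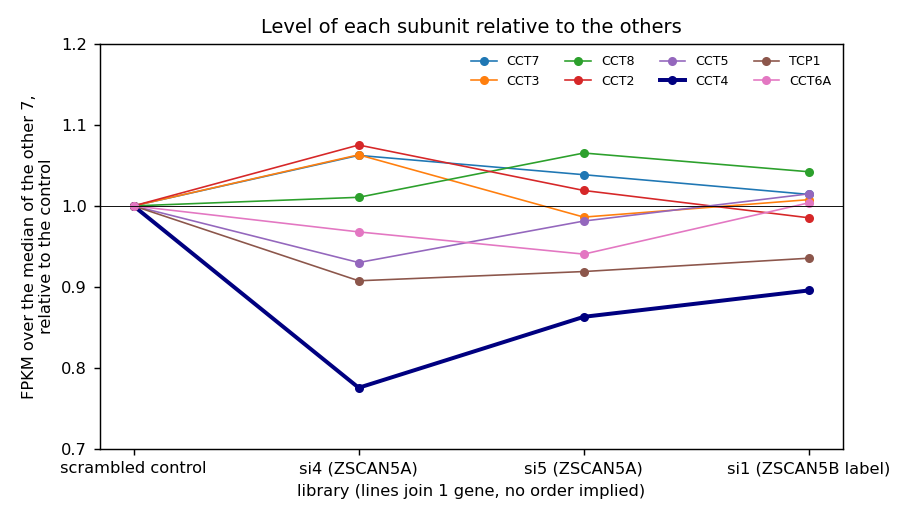
FPKM of each TRiC subunit over the median of the other 7, divided by the same value in the scrambled control (vertical axis), in each of the 4 libraries, with lines joining the values of 1 gene and no order implied among libraries. CCT4, the thick line, lies lowest in all 3 siRNA libraries.

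The siRNA seeds, bases 2 to 8 of the guide strand, can lower transcripts that carry a match in the 3′ UTR. The matching letters are ACGTGTA for si4, ACAAGAG for si5 and ATCATTT for si1. None of the 8 members, CCT4 included, has any of these letters in its annotated 3′ UTR, whose lengths ran from 144 bases for CCT7 to 1606 bases for CCT5. Such matches were found in 3.36%, 12.0% and 23.4% of 12019 expressed genes.

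The counts of the related lists stand beside 46.7% and 48.5% of all genes that were higher with the ZSCAN5A siRNAs and with si1. Among genes with a mean of 1 to 10 FPKM 32.7% and 36.5% were higher, and among those of 10 to 30 FPKM 51.9% and 52.6%. Among genes with a mean of 30 to 100 FPKM 70.3% and 68.9% were higher, and among those of at least 100 FPKM 86.3% and 85.0%. The other chaperonin genes were described from a list of 7, of which CCT8L2 was below the limit of 1 FPKM. With the ZSCAN5A siRNAs 5 of the other 6 were higher, with a median log2 ratio of 0.23, and in the library labelled ZSCAN5B knockdown 5 of 6, with a median of 0.36. HSPE1 and HSPD1, which encode the lid and the barrel of the mitochondrial chaperonin, had the highest log2 ratios among the well-expressed members with the ZSCAN5A siRNAs. HSPE1 had 131.6 FPKM in the control and 185.0, 164.7 and 195.1 with si4, si5 and si1, log2 ratios of 0.41 with the ZSCAN5A siRNAs and 0.57 with si1. HSPD1 had 424.6 FPKM in the control and 527.5, 495.3 and 582.5, log2 ratios of 0.27 and 0.46. These lay above the corresponding TRiC medians of 0.25 and 0.33. The lowest were MKKS and BBS10, chaperonin-like genes of Bardet-Biedl syndrome, at -0.04 and 0.01 with the ZSCAN5A siRNAs. MKKS differed between si4 and si5, with 21.9 and 16.4 FPKM around a control of 19.7.

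Prefoldin is the partner that delivers substrates to TRiC. All 9 genes of prefoldin and related complexes were above the control in both comparisons, with median log2 ratios of 0.27 with the ZSCAN5A siRNAs and 0.30 with si1, and none passed 1.5-fold. Most genes with a mean of at least 30 FPKM, where all of these but PDRG1 lie, were also higher, by the shares above. The list was not tested against them. Among the 6 prefoldin subunits the log2 ratio with the ZSCAN5A siRNAs was 0.37 for PFDN2 and PFDN6, 0.31 for PFDN4, 0.25 for PFDN5, 0.21 for VBP1 and 0.19 for PFDN1. PFDN2 had 95.4 FPKM in the control and 124.9, 121.6 and 118.5 with si4, si5 and si1. PFDN5, the strongest of the 6, had 321.9 FPKM in the control and 385.8, 380.8 and 397.3. For both genes the control was the lowest library. PFDN6 stands on 5 rows of the table, of which the strongest was used.

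Regulators of TRiC were mixed. With the ZSCAN5A siRNAs 5 of 7 tested genes were higher, with a median log2 ratio of 0.09, and with si1 6 of 7, with a median of 0.14. PDCL3, a phosducin-like protein that binds the chaperonin, had 29.5 FPKM in the control and 46.1, 34.4 and 44.2 with si4, si5 and si1, log2 ratios of 0.45 and 0.58, and its si4 and si5 values were 1.34-fold apart. HSP90AB1, a cytosolic heat shock protein, had 504.8 FPKM in the control and 661.0, 568.5 and 673.2. HSF1, the heat shock transcription factor, was lower than the control in every siRNA library, with log2 ratios of -0.11 and -0.13, and HSPA8, the constitutive HSP70, was at -0.01 and 0.14. PDCL2 was not tested because it was under 1 FPKM.

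Substrates did not share one direction. Of 13 tested actin and tubulin genes, 10 were higher with the ZSCAN5A siRNAs, with a median log2 ratio of 0.09, and 11 with si1, with a median of 0.27. TUBA4A was under 1 FPKM. TUBA1A, an alpha-tubulin, was the only gene of all 7 lists past the 1.5-fold limit, and only in the library labelled ZSCAN5B knockdown. It had 173.2 FPKM in the control and 219.3, 198.5 and 265.9 with si4, si5 and si1, 1.54-fold with si1. TUBB3, a beta-tubulin, was at 0.34 and 0.55. Tubulin genes are close copies of one another, so reads can be shared among them and their values are uncertain. ACTB, beta-actin, had 718.1 FPKM in the control and 645.1, 551.6 and 693.9 with si4, si5 and si1, all below the control, with log2 ratios of -0.26 and -0.05. ACTG1, gamma-actin, was at -0.09 and -0.12, with 1065 FPKM in si4 against 1063 in the control. The 6 tubulin cofactor genes, which assemble tubulin after TRiC releases it, had 4 higher members in each comparison and medians of 0.10 and 0.03. ARL2 and TBCB were at 0.18 and 0.15 with the ZSCAN5A siRNAs, and TBCD and TBCC both at -0.07.

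Of 20 WD40 and other substrates, 9 were higher and 11 lower with the ZSCAN5A siRNAs, with a median log2 ratio of -0.04, and 10 were higher and 10 lower with si1, with a median of -0.003. RACK1, a WD40 protein of the ribosome that the table lists as GNB2L1, had the highest log2 ratio with the ZSCAN5A siRNAs, 0.32, with 1746 FPKM in the control and 2195, 2173 and 1975 with si4, si5 and si1. HDAC3, a histone deacetylase, was at 0.18. With si1, RACK1 was at 0.18, below HDAC3 at 0.23 and STRAP at 0.27. DCAF7, a WD40 adaptor, was lowest with the ZSCAN5A siRNAs, at -0.33, with 46.0 FPKM in the control and 33.6, 39.4 and 39.0, and STAT3, a transcription factor, was at -0.28. Both were below the control in every siRNA library. With si1, VHL at -0.45 and PLK1 at -0.35 were lower than DCAF7 at -0.24, and these 2 genes, like STRAP, are named after their values were seen. RACK1 lies far above and DCAF7 and STAT3 below 100 FPKM, and the trend with level described above applies to these lists too. The medians of the lists were not compared by a test.

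**Figure D5:**
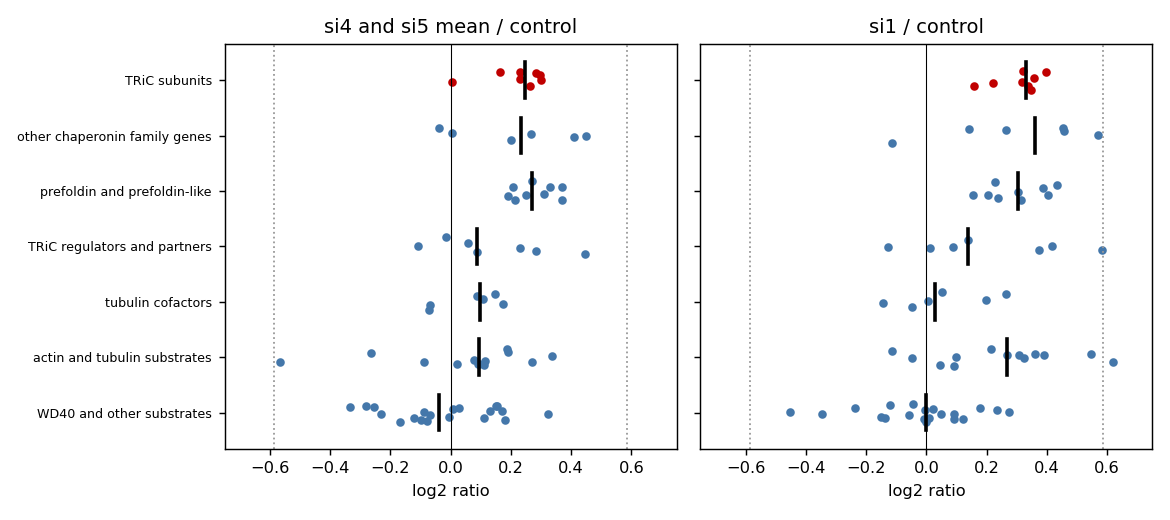
Log2 ratio to the control (horizontal axis) of each tested gene in the TRiC list (red) and 6 lists of related genes (blue), for the mean of si4 and si5 and for si1, with black bars at the median of each list and dotted lines at 1.5-fold. The TRiC and prefoldin points lie at or above 0 in both panels, while the WD40 and other substrates spread on both sides of it, and 1 point, TUBA1A, lies beyond a dotted line.

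The genes most like the TRiC group were sought among 5916 genes outside the lists with at least 10 FPKM in each library. Likeness was the Euclidean distance of the 3 log2 ratios from the medians of the 8 members, which were 0.27, 0.21 and 0.33 for si4, si5 and si1. The nearest were FAM98B, WDR12, HRSP12, PSMD13 and PKIG, at distances of 0.0152, 0.0159, 0.0190, 0.0216 and 0.0217. FAM98B, for example, had 25.5 FPKM in the control and 31.0, 29.3 and 32.2 with si4, si5 and si1, and PSMD13, a proteasome subunit, had 51.4 and 62.0, 58.6 and 64.5. Of the members themselves CCT5 lay nearest, at 0.0386, with 20 of these genes nearer. CCT4 lay farthest, at 0.387, with 2728 nearer. CCT3 and CCT6A each had 50 nearer, CCT2 136, CCT7 180, CCT8 406 and TCP1 673, out of the 5916 genes compared. Every member thus had genes outside the complex nearer to the median than itself. The members set this median, so their own closeness to it is partly built in.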

How the data were processed

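RNA of HEK-293 cells was sequenced in 4 libraries, grouped by the sample labels. Labels and methods name different stranded mRNA kits. Per the labels, the authors used CASAVA 1.8.2, Trimmomatic 0.30, TopHat2 2.1.0 and Cufflinks 2.2.1 on hg19 and deposited FPKM values, which were used unscaled. Whether strand was used in counting is not given in the sources used here. Genes needed 1 FPKM in a library of the comparison and no side at 0. A symbol on several rows is represented by its strongest row. Depth came from the ratios of 1745 genes under 0.1 FPKM, and counting intervals are exact Clopper-Pearson on approximate fragments. Length, GC content and 3′ UTRs came from GENCODE on GRCh37 (96.3% of 12787 symbols matched, 1141 through older symbols) in 10 length by 5 GC bins. Members, lists and the named genes (all TRiC and prefoldin subunits, and from each other list the 2 highest and 2 lowest ratios with at least 10 FPKM and any past 1.5-fold) were chosen with earlier results of these data known. Adjusted p-values are from limma 3.58.1 in R 4.3.3. Scripts ran in Python 3.11.15 with pandas 2.3.3 and were tested on simulated data. Scaling, pseudocount, limits, fold limit, single siRNAs and limma were the alternatives. The table holds 0 other columns of per-sample values.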

Additional observations from a re-analysis of the deposited data

How the results depend on the processing

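No paired analysis was possible because each siRNA and the control have 1 library. Within 1 SD of the si4 and si5 medians (0.04 in log2), the median log2 ratio of the TRiC genes was kept under median-ratio and upper-quartile scaling, a pseudocount of 1 and without CCT4 in all 3 comparisons, and with the ZSCAN5A siRNAs also with length and GC content removed and in limma. Leaving out either ZSCAN5A siRNA gave 0.21 to 0.27, and the members past 1.5-fold stayed at 0. It moved with the median of genes of at least 100 FPKM removed, to 0.0451 with the ZSCAN5A siRNAs and 0.129 with si1, with equal FPKM sums, to 0.0932 and 0.191, and for si1 with length and GC content removed, to 0.242. The first 2 of these steps, and leaving out CCT4, were chosen after seeing the data, and the cause was not tested. With a limit of 1.2-fold, 4 and 6 members passed in place of 0. The highest over lowest level, 2.86 in the control, was 2.92, 3.10 and 2.93 in si4, si5 and si1 and 1.61 without the extremes. Of 168 values of single members under these alternatives, 160 kept their sign. The other 8 were those of CCT4, TCP1 and CCT5, all between -0.20 and 0. The pseudocount could not change a sign and the scalings move all members nearly alike, so this count says little about robustness. A limit of 10 FPKM moved the median of all genes to 0.05 in both comparisons with the control, and no limit to -0.04 and -0.02.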

Other observations

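Several TRiC genes share their locus with other genes of the table (hg19), and these are given as values. ACAT2, a thiolase of lipid metabolism, overlaps the end of TCP1 on the opposite strand, and without knowledge of how strand was counted the reads of the overlap cannot be told apart. It had 78.2 FPKM in the control and 108.3, 82.0 and 87.0 with si4, si5 and si1, so that si4 stood apart from si5, whereas TCP1 had 184.7 and 175.3. MRPL18, a mitochondrial ribosomal protein gene that starts 756 bases from TCP1, had 79.6 FPKM in the control and 97.7, 85.7 and 91.4. PSPH, an enzyme of serine synthesis 109 bases from CCT6A, had 22.6 FPKM and 25.3, 26.95 and 24.5, and FAM173B, 267 bases from CCT5, had 11.1 FPKM and 11.8, 12.9 and 12.1. These 4 neighbors were lowest in the control, as were TCP1, CCT6A and CCT5 and 30.1% of all genes.

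SUMF2, which begins 234 bases beyond CCT6A, differed from it. It had 53.9 FPKM in the control and 44.8, 56.6 and 47.4 with si4, si5 and si1. C1orf182, which overlaps CCT3 on the opposite strand, had 1.83 FPKM in the control and 1.96, 1.79 and 2.82. The small nucleolar RNAs inside TCP1 and CCT6A (SNORA20, SNORA29 and SNORA15) were read from at most 5 fragments in any library, too few for a fold, and MIR3913-1 and MIR3913-2 beside CCT2 are listed at 0. No row lay within 1000 bases of CCT4, CCT7 or CCT8.

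Copies of the zeta subunit gene were weak beside CCT6A. The pseudogene CCT6P1 had 4.16 to 5.32 FPKM, CCT6P3 had 3.30 to 4.30 and CCT6B, the testis form, had 2.70 to 3.18, against 127.8 to 159.7 for CCT6A. How reads shared by these copies were assigned is not given in the sources used here.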
